A study of Homo sapiens with 6 samples.

Results

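Serine synthesis and folate one-carbon enzymes are described here in MDA-MB-231 cells, a long-used line of human breast cancer of the triple-negative type. The members were 9 genes taken by symbol from the 17631 genes with a value in each library: PHGDH, PSAT1 and PSPH of serine synthesis, the cytosolic folate enzymes SHMT1 and MTHFD1, and the mitochondrial folate enzymes SHMT2, MTHFD2, MTHFD1L and ALDH1L2. All 9 had a row, and 8 passed a filter of 1 TPM (transcripts per a fixed total, so that every library sums alike) in 3 libraries or more, as did 12582 genes in all. The exception was ALDH1L2. Cells were grown in DMEM, a medium that itself contains serine and glycine, with serum and antibiotics, and were treated for 24 h with vehicle or with 30 µM PDBAG1. This peptide joins a cell-penetrating sequence to a fragment of the metabolic enzyme GPD1 that was detected in benign breast adipose tissue. The study screened it on breast cancer cells and reported that it binds the mitochondrial protein C1QBP and promotes the ubiquitin-dependent degradation of C1QBP. Each group held 3 libraries of mRNA. Neither the labels nor the methods say whether these came from separate cultures, so the p-values measure the spread between libraries, which may be technical. The experiment used 1 cell line, 1 dose and 1 time.

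Cells make serine from the glycolytic intermediate 3-phosphoglycerate in the order PHGDH, PSAT1, PSPH. Serine hydroxymethyltransferases (SHMT) then pass a carbon unit from serine to tetrahydrofolate and release glycine. The folate-bound unit can be oxidised in mitochondria, leave as formate, and be taken up again by folate in the cytosol for the synthesis of purines and thymidylate. Proliferating cancer cells commonly run this cycle in that direction, and MTHFD2 is well known as an enzyme that is high in tumours and low in most adult tissues. The comparison of 3 vehicle with 3 PDBAG1 libraries asks how the mRNA of these enzymes differed after treatment, and whether cytosolic and mitochondrial enzymes differed alike.

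Sequencing depth cannot be read from TPM and is unknown for these libraries. Between 12392 and 12611 genes per library reached a TPM of 1, and the standard deviation of log2 differences between 2 libraries was 0.14 to 0.18 for libraries of the same treatment and 0.28 to 0.30 for libraries of different treatments. All 6 genes chosen as present in this line were abundant: VIM, for example, lay at 4174 to 4346 TPM with vehicle and at 5758 to 5942 TPM with PDBAG1. The hormone receptor genes ESR1 and PGR stayed at or under 3.38 and 0.06 TPM. The labels also name breast cancer tissue as the source. Of 6 markers for other cells of the breast, the leukocyte gene PTPRC, the adipocyte gene ADIPOQ and the smooth muscle gene MYH11 had at most 1.41, 0.69 and 0.26 TPM and were not tested. The other 3 were called higher: the endothelial gene PECAM1, with 3.94 ± 0.152 TPM in vehicle and 8.64 ± 0.680 TPM in PDBAG1 libraries (SD, n = 3; log2 fold change 0.96), the stromal gene PDGFRB, with 1.78 ± 0.204 and 2.43 ± 0.0666 TPM (log2 fold change 0.31), and CD68 (log2 fold change 0.31). The summed level of the 6 was 258 to 271 TPM with vehicle and 319 to 341 TPM with PDBAG1, nearly all of it from CD68, a lysosomal protein gene, and the other 5 summed to 7.28 to 7.50 and 11.8 to 13.5 TPM. Their part in the results was not tested. In bulk RNA, fewer cells in a given state and less RNA per cell cannot be told apart.

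In vehicle-treated cells, 7 of the 9 enzymes were well expressed, whereas PHGDH, the first enzyme of serine synthesis, and ALDH1L2 were near or under 1 TPM. TPM is a level per transcript length, so genes can be ranked by it. SHMT2 was highest with a mean of 273 TPM, followed by PSAT1 (229 TPM), MTHFD1 (168 TPM), MTHFD2 (74.9 TPM), PSPH (58.8 TPM), SHMT1 (46.3 TPM) and MTHFD1L (43.3 TPM). PHGDH at 1.05 TPM and ALDH1L2 at 0.320 TPM came last. In the vehicle group no 2 neighbours in this order had overlapping libraries. With PDBAG1 the order was the same except that MTHFD1L and SHMT1 changed places, and the libraries of these 2 genes overlapped.

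**Figure D1:**
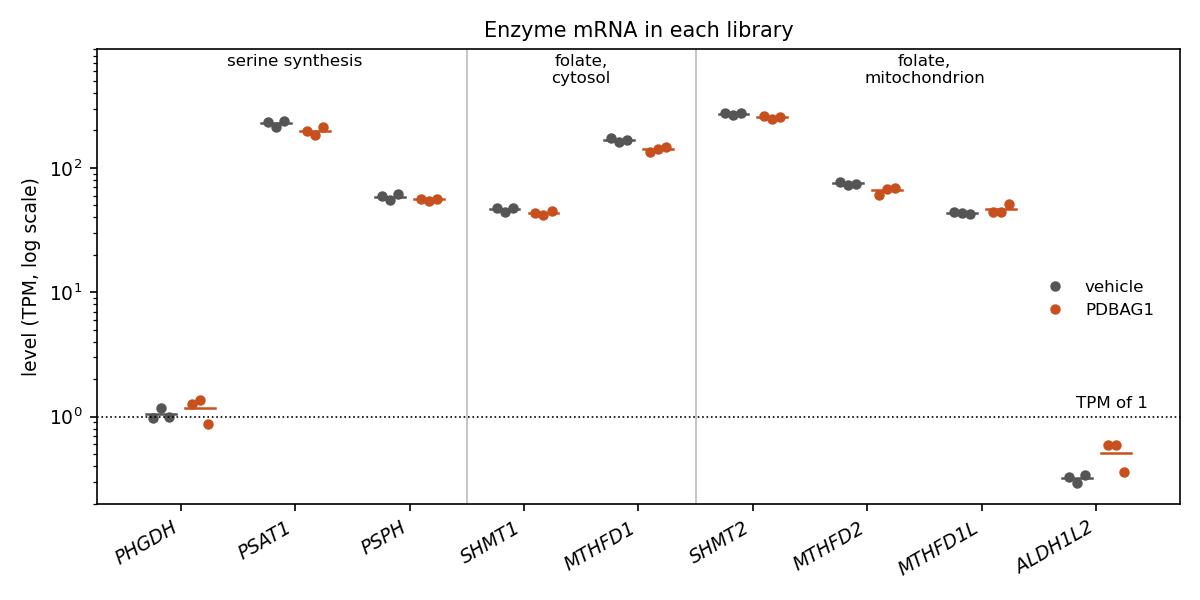
Level of each enzyme mRNA in TPM on a log axis, with 1 point per library (grey, vehicle; orange, PDBAG1) and a bar at the mean of 3 libraries. Of the 9 genes, 7 lay between 42.1 and 277 TPM in both groups, while PHGDH lay near 1 TPM and ALDH1L2 below it.

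After PDBAG1, the mRNAs of PSAT1, MTHFD1 and MTHFD2 fell, each by less than 1.5-fold, and no tested member was called higher. The log2 fold changes were -0.20 for PSAT1, -0.24 for MTHFD1 and -0.19 for MTHFD2, from limma on log2(TPM + 1), a scale that understates the change of genes with low TPM. Calls were made at an adjusted p under 0.05 (Benjamini-Hochberg, over all genes tested). The 3 of 8 members called stand beside 37.6% of all genes tested, and beside 15.9% of all genes for falls alone and 21.7% for rises alone. The share of members called is therefore close to that of all genes. Without adjustment, 4 of the 8 were lower and 0 higher at a limma p under 0.05, beside 19.7% of all genes lower and 26.5% higher (46.2% in either direction). A change of at least 1.5-fold together with the adjusted p, the criterion of the study, was met by 0 members against 3.34% of all genes, of which 2.86% were higher and 0.477% lower. The median log2 fold change was -0.09 over the 8 members and 0.03 over all genes tested, with 6 of the 8 below 0.

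In serine synthesis, PHGDH encodes phosphoglycerate dehydrogenase, which commits 3-phosphoglycerate to the pathway (chromosome 1, 119648411 to 119744218, GRCh38, GENCODE v44). Its libraries read 0.98, 1.17 and 0.99 TPM with vehicle and 1.26, 1.36 and 0.87 TPM with PDBAG1. The groups overlapped, and only 1 vehicle library but 2 PDBAG1 libraries reached the filter's 1 TPM. The log2 fold change was 0.07 (95% interval -0.20 to 0.35; limma adjusted p = 0.679), the widest interval among the members. It was -0.002 under quantile normalisation.

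PSAT1 encodes phosphoserine aminotransferase, which converts the product of PHGDH with glutamate as nitrogen donor (chromosome 9, 78297125 to 78330093). Its level was 233, 214 and 238 TPM in the vehicle libraries and 198, 185 and 215 TPM in the PDBAG1 libraries. The third PDBAG1 library lay just above the lowest vehicle library, so the groups touched, although the mean was 229 ± 12.5 TPM in the vehicle libraries and 199 ± 14.8 TPM in the PDBAG1 libraries (SD, n = 3). The log2 fold change of -0.20 (standard error 0.05, 95% interval -0.32 to -0.08) had a limma adjusted p of 0.0119. Without vehicle replicate 3 it was -0.17 and without PDBAG1 replicate 2 it was -0.15, and in both cases the call was lost (limma adjusted p = 0.0612 and 0.0641).

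PSPH encodes phosphoserine phosphatase, the last enzyme of the path (chromosome 7, 56011051 to 56051604), and has a closely similar pseudogene on the same chromosome with which reads may be shared. Its vehicle libraries held 59.2, 55.4 and 61.8 TPM and its PDBAG1 libraries 56.7, 54.7 and 56.1 TPM. The PDBAG1 libraries lay within or just under the range of vehicle, with a log2 fold change of -0.07 (95% interval -0.18 to 0.04; limma adjusted p = 0.306). PSAT1 thus held 183 to 241 times the TPM of PHGDH with vehicle and 136 to 247 times with PDBAG1, ranges that overlapped, and the spread of this ratio came with a denominator near 1 TPM.

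Among the folate enzymes of the cytosol, MTHFD1 had the largest log2 fold change, in size, of the 8 tested members. It encodes the trifunctional C1-tetrahydrofolate synthase, which joins formate to tetrahydrofolate and interconverts the bound carbon unit for purine and thymidylate synthesis (chromosome 14, 64388031 to 64463457). The vehicle libraries were at 175, 163 and 166 TPM and the PDBAG1 libraries at 134, 143 and 148 TPM. Every PDBAG1 library was below every vehicle library, and the mean was 168 ± 6.01 TPM with vehicle against 142 ± 7.004 TPM with PDBAG1 (SD, n = 3 libraries). This log2 fold change of -0.24 (standard error 0.05, 95% interval -0.34 to -0.14; limma adjusted p = 0.00105) stayed between -0.29 and -0.21 and was called under the 12 alternative settings tried. The 3 tested genes whose log2(TPM + 1) followed MTHFD1 most closely over the 6 libraries were ABHD5, RPL7L1 and NOL10, with Pearson r from 0.998 to 0.999. The libraries share their 2 groups, which sets much of such a correlation.

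SHMT1 encodes the cytosolic serine hydroxymethyltransferase (chromosome 17, 18327860 to 18363563). It was at 47.2, 44.4 and 47.4 TPM with vehicle and at 43.2, 42.1 and 44.9 TPM with PDBAG1, so that 1 PDBAG1 library overlapped the vehicle range. The log2 fold change of -0.09 (95% interval -0.21 to 0.02; limma adjusted p = 0.189) was not called. It was called lower after median-of-ratios scaling (-0.13) and after quantile normalisation (-0.12).

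In mitochondria, SHMT2 is the counterpart of SHMT1 (chromosome 12, 57229573 to 57234935). Its libraries held 277, 264 and 277 TPM with vehicle and 264, 247 and 255 TPM with PDBAG1. The 2 groups were barely separate, between 264.19 TPM in the lowest vehicle library and 263.71 TPM in the highest PDBAG1 library. SHMT2 was not called, with a log2 fold change of -0.10 (95% interval -0.18 to -0.01; limma adjusted p = 0.0738). It was called under median-of-ratios scaling (-0.14), under quantile normalisation (-0.10) and without PDBAG1 replicate 1 (-0.12).

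MTHFD2 encodes the mitochondrial methylenetetrahydrofolate dehydrogenase and cyclohydrolase, which oxidises the carbon unit from serine (chromosome 2, 74186172 to 74217565). It read 77.1, 73.2 and 74.5 TPM in the vehicle libraries and 60.6, 67.6 and 69.3 TPM in the PDBAG1 libraries, and the groups did not overlap. Mean levels were 74.9 ± 1.98 TPM in the vehicle libraries and 65.9 ± 4.62 TPM in the PDBAG1 libraries (SD, n = 3), so that MTHFD2 fell by 0.19 on the log2 scale (standard error 0.06, 95% interval -0.30 to -0.07; limma adjusted p = 0.0167). The first PDBAG1 library was the lowest, and without it the log2 fold change was -0.13 and no longer called (limma adjusted p = 0.0608). The call was also lost without vehicle replicate 1, at -0.17 (limma adjusted p = 0.0512). MTHFD1, MTHFD2 and SHMT2 were the 3 tested members with all PDBAG1 libraries below all vehicle libraries, an arrangement seen in 20.2% of all genes tested, while the reverse, seen in 27.2%, was found for 0 tested members.

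MTHFD1L encodes the mitochondrial formate-tetrahydrofolate ligase, which releases formate for export to the cytosol (chromosome 6, 150865679 to 151101887). Its vehicle libraries were at 44.3, 43.3 and 42.5 TPM and its PDBAG1 libraries at 44.2, 43.9 and 51.7 TPM. The third PDBAG1 library stood above the other 5, which lay between 42.5 and 44.3 TPM. PDBAG1 over vehicle gave a log2 fold change of 0.10 (95% interval -0.04 to 0.24; limma adjusted p = 0.249) and 0.02 without PDBAG1 replicate 3.

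ALDH1L2 encodes the mitochondrial 10-formyltetrahydrofolate dehydrogenase, which oxidises the carbon unit to CO2 with formation of NADPH (chromosome 12, 105019784 to 105107643). Its libraries read 0.33, 0.29 and 0.34 TPM with vehicle and 0.59, 0.59 and 0.36 TPM with PDBAG1. All 3 PDBAG1 values were higher, but every value was under 1 TPM and the third was just above the vehicle range. Without the expression filter, ALDH1L2 had a log2 fold change of 0.19 (95% interval 0.03 to 0.36; limma adjusted p = 0.0934), which was not called.

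**Figure D2:**
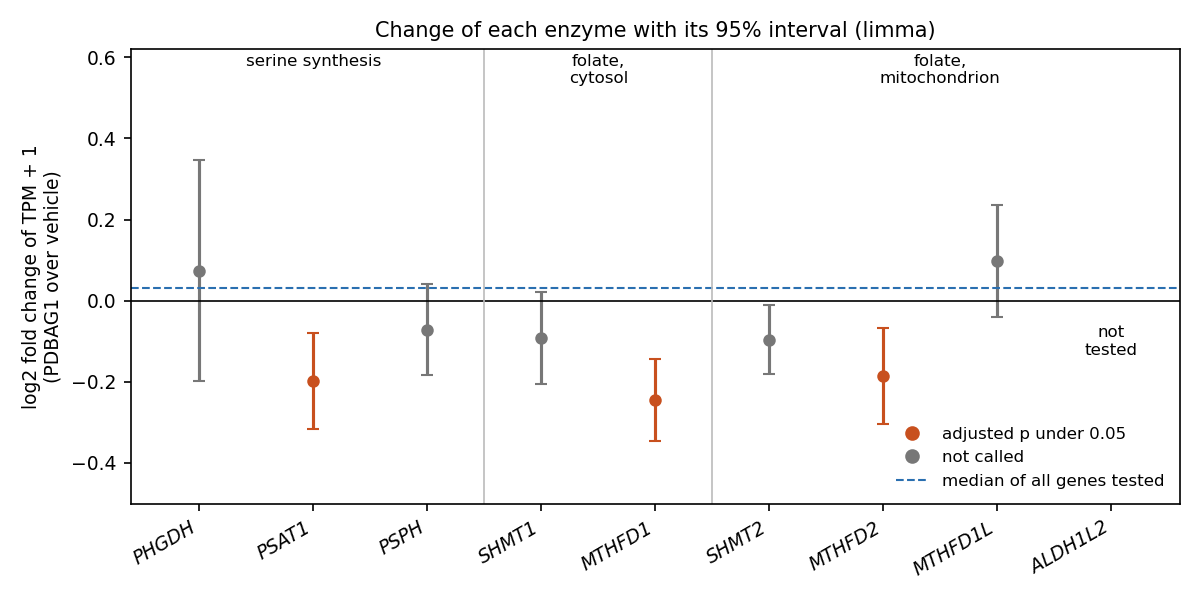
Log2 fold change of TPM + 1 (PDBAG1 over vehicle) of the 8 tested enzymes with the 95% interval from limma. Orange points were called at an adjusted p under 0.05, and the dashed line is the median of all genes tested, 0.03. The intervals of PSAT1, MTHFD1, MTHFD2 and SHMT2 lay below 0, and the last of these was not called after adjustment.

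Falls were found on both sides of the mitochondrial membrane. The summed TPM of the 2 cytosolic folate enzymes went from 214 ± 7.25 to 185 ± 7.80 and that of the 4 mitochondrial ones from 391 ± 9.09 to 368 ± 8.56 (SD, n = 3 each). The mitochondrial share of these 6 mRNAs was 64.2%, 64.8% and 64.9% with vehicle and 67.5%, 66.0% and 66.1% with PDBAG1. All 3 PDBAG1 values were above all vehicle values, and this share was not tested. MTHFD1 made up most of the cytosolic sum (168 TPM with vehicle and 142 TPM with PDBAG1). SHMT2 made up most of the mitochondrial sum (273 and 255 TPM), so the share mainly follows these genes. Among 3 serine synthesis genes the sum moved from 289 ± 15.6 to 256 ± 15.3 TPM (SD, n = 3 each), and 1 PDBAG1 library overlapped the vehicle range.

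Enzyme ratios within a library do not depend on how libraries are scaled against each other, and 6 ratios were compared. With 3 libraries against 3, the exact two-sided permutation test cannot go below 0.1. Ratios at this p had 0.15 after Benjamini-Hochberg adjustment over these 6 ratios. The ratio of SHMT2 to SHMT1 was 5.86, 5.95 and 5.85 with vehicle and 6.10, 5.87 and 5.67 with PDBAG1, a log2 difference of -0.002 (exact permutation p = 1). SHMT2 made up 85.5% ± 0.112 of the summed TPM of both in the vehicle libraries and 85.5% ± 0.456 in the PDBAG1 libraries (SD, n = 3). The difference in this proportion was smaller than the spread of the libraries.

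By contrast, MTHFD1L was higher after PDBAG1 relative to MTHFD1 and to MTHFD2. Both of these enzymes were called lower, whereas MTHFD1L itself was not called. Its ratio to MTHFD1 was 0.254, 0.266 and 0.256 with vehicle and 0.329, 0.308 and 0.349 with PDBAG1, a log2 difference of 0.35, higher in 3 of 3 libraries (exact permutation p = 0.1, the smallest possible). Relative to MTHFD2 it stood at 0.574, 0.591 and 0.570 with vehicle and at 0.728, 0.649 and 0.746 with PDBAG1, a log2 difference of 0.29 (exact permutation p = 0.1). Leaving out PDBAG1 replicate 3, which had the highest MTHFD1L level, gave log2 differences of 0.30 and 0.25.

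The ratio of the dehydrogenases differed less. MTHFD2 to MTHFD1 was 0.442, 0.450 and 0.448 with vehicle and 0.452, 0.474 and 0.468 with PDBAG1, a log2 difference of only 0.06 although the groups did not overlap (exact permutation p = 0.1). MTHFD2L, a mitochondrial isoenzyme of MTHFD2 at 21.4 ± 0.774 and 20.03 ± 1.47 TPM (SD, n = 3 each), was not called, and MTHFD2 held 3.50 ± 0.112 times its level with vehicle and 3.29 ± 0.0309 times after PDBAG1 (SD, n = 3 each; log2 difference -0.09, exact permutation p = 0.1).

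**Figure D3:**
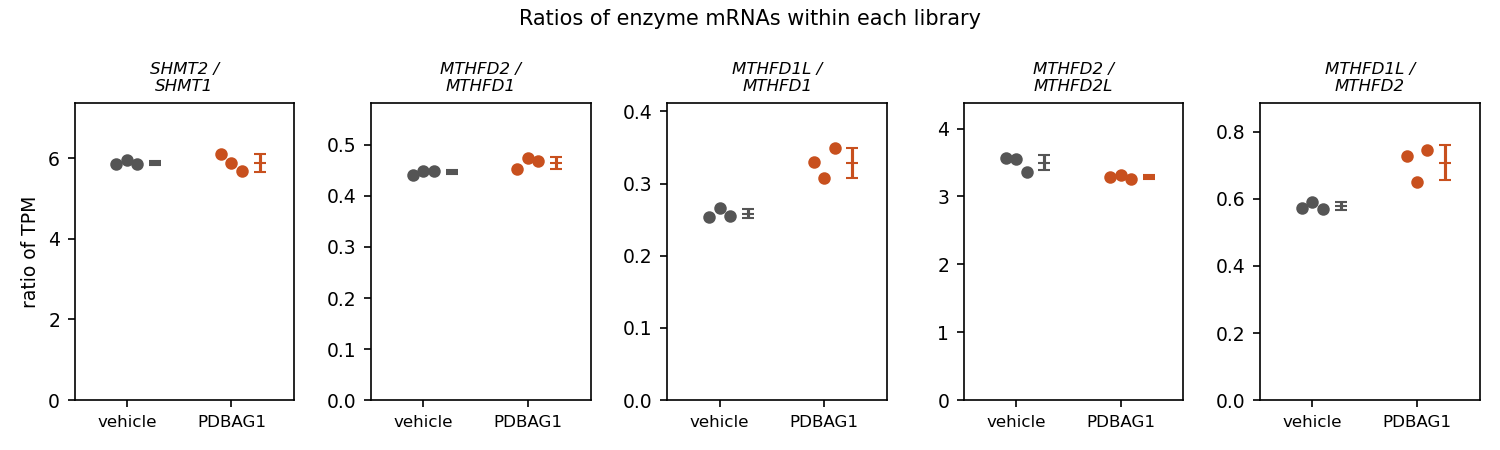
Ratios of TPM between 2 enzyme mRNAs in each library, 1 panel per ratio with its axis from 0, with the mean and SD of 3 libraries beside the points (grey, vehicle; orange, PDBAG1). SHMT2 to SHMT1 stayed near 5.88 in both groups, whereas both MTHFD1L ratios were higher in every PDBAG1 library.

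The promoters of the 3 genes that fell and of MTHFD1L, which did not, are shown so that their sequences can be compared. They are the 250 bases before the RefSeq start site on the plus strand (GRCh38.p14). MTHFD1L has 4 windows, and the first listed is shown. For MTHFD1, MTHFD2 and MTHFD1L the RefSeq start used lies inside the GENCODE span given above, so the 2 sources place the start differently. Capitals mark matches on either strand to CCAAT, the element bound by NF-Y, to CACGTG, the E-box bound by MYC and USF proteins, and to TGATGNAA, the core of the element bound by ATF4 with C/EBP partners. No match overlapped another.
PSAT1, chr9:78296875-78297124: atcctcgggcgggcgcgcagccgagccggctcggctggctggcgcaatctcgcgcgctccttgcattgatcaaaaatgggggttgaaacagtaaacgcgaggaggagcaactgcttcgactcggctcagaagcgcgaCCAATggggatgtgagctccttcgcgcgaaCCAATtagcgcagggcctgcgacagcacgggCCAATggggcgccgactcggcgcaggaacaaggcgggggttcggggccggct
MTHFD1, chr14:64388103-64388352: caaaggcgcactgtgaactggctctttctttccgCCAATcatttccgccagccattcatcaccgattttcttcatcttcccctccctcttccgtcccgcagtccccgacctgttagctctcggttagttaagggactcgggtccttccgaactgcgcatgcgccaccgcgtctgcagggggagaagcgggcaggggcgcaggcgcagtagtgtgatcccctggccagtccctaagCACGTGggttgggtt
MTHFD2, chr2:74198365-74198614: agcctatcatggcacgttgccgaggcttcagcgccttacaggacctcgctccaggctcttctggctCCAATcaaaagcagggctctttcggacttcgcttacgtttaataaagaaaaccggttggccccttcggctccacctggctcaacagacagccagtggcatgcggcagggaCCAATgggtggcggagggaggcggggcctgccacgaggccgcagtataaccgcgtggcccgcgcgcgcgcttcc
MTHFD1L, chr6:150866236-150866485: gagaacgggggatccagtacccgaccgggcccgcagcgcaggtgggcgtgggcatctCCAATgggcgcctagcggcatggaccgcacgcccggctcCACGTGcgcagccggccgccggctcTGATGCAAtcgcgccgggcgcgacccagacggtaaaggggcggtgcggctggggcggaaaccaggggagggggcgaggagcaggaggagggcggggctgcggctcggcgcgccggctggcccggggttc

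Windows were found for 6 of the 9 members. CCAAT was present in all 6 of them, 3 times in PSAT1, 2 times in MTHFD2 and in SHMT1, and once each in PHGDH, MTHFD1 and MTHFD1L, compared with 33% of the 27305 gene windows of this length. The 3 copies in PSAT1 lay 48 to 113 bases before the start. CACGTG was found in 2 members, MTHFD1 (10 to 15 bases before the start) and MTHFD1L, and in 6.49% of all windows. TGATGNAA occurred in MTHFD1L alone among the 6, at 122 to 129 bases before the start, and in 3.19% of all windows. These are matches of letters, and binding was not measured. The motifs were chosen after these windows were read, so the counts are a description and not a test of enrichment.

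Around these enzymes, 8 lists held a further 45 genes with a value, and the filter left 38. Over these the median log2 fold change was -0.16, with 19 called lower and 2 called higher, beside 15.9% and 21.7% of all genes tested. Each of the 8 de novo purine synthesis genes, whose pathway takes carbon from formyl-folate, was called lower, with a median of -0.24. PPAT, the amidotransferase that commits the pathway, fell, with 28.1 ± 0.853 TPM in vehicle and 20.5 ± 1.77 TPM in PDBAG1 libraries (SD, n = 3; log2 fold change -0.44, limma adjusted p = 0.000242). PRPS1, which makes phosphoribosyl pyrophosphate, fell by 0.34 on the log2 scale, and ADSL and ATIC fell by 0.33 and 0.27. The smallest fall of the 8 was that of GART (log2 fold change -0.17). All 8 were lower in every setting, but without vehicle replicate 1 only 5 were called.

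Of the other folate enzymes described here, 2 of 5 tested genes fell and 3 were not called, beside 37.6% of all genes tested that were called. Leaving out PDBAG1 replicate 2 left 1 gene of this list called lower, as did dropping the expression filter. TYMS, thymidylate synthase, which consumes the carbon unit for DNA synthesis, was at 247, 250 and 250 TPM with vehicle and at 188, 194 and 198 TPM with PDBAG1 (log2 fold change -0.36, limma adjusted p = 6.45e-06). The groups were separate. MTHFS, which returns 5-formyl-folate to the pool, fell by 0.41 on the log2 scale. ALDH1L1, the cytosolic counterpart of ALDH1L2, was low and not called (2.88 ± 0.0513 and 2.71 ± 0.501 TPM; SD, n = 3 each).

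The carriers that bring serine, glycine and folate into mitochondria did not move as a block. SFXN1, the main mitochondrial serine transporter, was at 87.9, 80.6 and 85.3 TPM with vehicle and at 68.1, 77.7 and 80.6 TPM with PDBAG1, a fall of 0.17 on the log2 scale that was just past the threshold (limma adjusted p = 0.0475). Its relative SFXN2 fell from 17.6 ± 1.68 to 9.96 ± 0.558 TPM and its relative SFXN3 rose from 62.6 ± 2.86 to 102 ± 2.39 TPM (SD, n = 3 each). These 2, with log2 fold changes of -0.76 and 0.70 (limma adjusted p = 9.18e-06 and 1.37e-07), were the only genes of the 8 lists to pass 1.5-fold. The glycine carrier gene SLC25A38 fell by 0.19 and the folate carrier gene SLC25A32 by 0.17 on the log2 scale. The list had 3 carriers called lower, beside 15.9% of all genes tested. That number was 1 without vehicle replicate 3, without PDBAG1 replicate 2 and with the replicate numbers as a block.

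In the glycine cleavage system, GLDC, its decarboxylase, was at or under 0.11 TPM in every library, while GCSH, its lipoyl carrier protein, fell, with 64.1 ± 2.30 TPM in vehicle and 49.6 ± 0.805 TPM in PDBAG1 libraries (SD, n = 3; log2 fold change -0.36, limma adjusted p = 6.42e-05). Of 5 tested genes for folate uptake and retention, FOLR1, a folate receptor at 2.98 ± 0.146 TPM with vehicle (SD, n = 3), fell by 0.38 on the log2 scale, SLC25A32 fell as given, and 3 were not called. Among 5 tested enzymes that use serine, PTDSS1, phosphatidylserine synthase, fell by 0.30 on the log2 scale and 4 were not called. In the methionine cycle, MTRR and MAT2A fell by 0.33 and 0.27, AHCYL2 rose by 0.23, and 4 of 7 were not called. The 1 tested transsulfuration gene, CTH, was not called (log2 fold change 0.04). Over all genes tested, 37.6% were called, the share to set beside each of these counts.

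**Figure D4:**
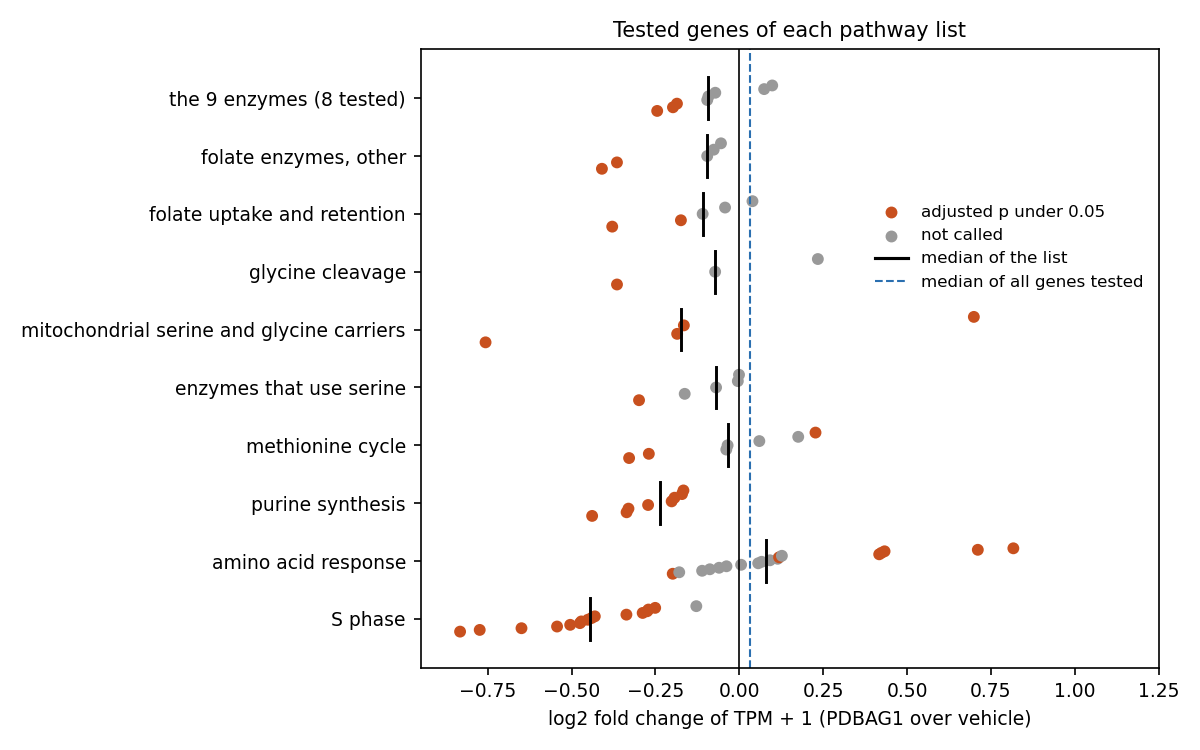
Log2 fold change of TPM + 1 (PDBAG1 over vehicle) of every tested gene in the enzyme set and in 9 lists, 1 point per gene (orange, adjusted p under 0.05; grey, not called), with the median of each list as a black bar and that of all genes tested as a dashed line. All 8 purine synthesis genes lay below 0, SFXN2 and SFXN3 lay at -0.76 and 0.70, and the S phase genes had the lowest median, -0.45.

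ATF4 is the transcription factor known to drive PHGDH, PSAT1, SHMT2 and MTHFD2 when amino acids are short. Its mRNA, which is largely controlled at translation, was at 501, 531 and 523 TPM with vehicle and at 571, 570 and 560 TPM with PDBAG1 (log2 fold change 0.13, limma adjusted p = 0.0103). HIF1A rose by a log2 fold change of 0.13 with overlapping groups (limma adjusted p = 0.0423), whereas MYC (-0.06) and NFE2L2 (0.02) were not called. Of 18 tested genes of the amino acid response, 6 were called higher and 1 lower, with a median of 0.08, beside 21.7% and 15.9% of all genes tested. CEBPB rose, with 90.7 ± 5.61 TPM in vehicle and 161 ± 10.7 TPM in PDBAG1 libraries (SD, n = 3; log2 fold change 0.82), ATF3 by 0.71, SESN2 by 0.43 and CHAC1 by 0.42 on the log2 scale. ASNS, asparagine synthetase, which like PSAT1 is a biosynthetic enzyme, was not called (log2 fold change -0.11, limma adjusted p = 0.151). After median-of-ratios scaling the list had 5 genes higher and 4 lower. Of the 4 members named with ATF4, PSAT1 and MTHFD2 fell, by 0.20 and 0.19 on the log2 scale, and SHMT2 (log2 fold change -0.10) and PHGDH (0.07) were not called.

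Most S phase genes listed here were also lower after PDBAG1. Of 16 such genes, 15 were called lower and 0 higher by limma (15.9% and 21.7% of all genes tested), with a median log2 fold change of -0.45, and 1, CDT1, was not called. UNG, a uracil glycosylase, had the largest fall, by 0.83 on the log2 scale, followed by GINS2 with 0.77, CCNE2 with 0.65 and UHRF1 with 0.54. The falls of PSAT1, MTHFD1 and MTHFD2 were smaller than that median. The part of the S phase genes in these falls was not tested.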

How the data were processed

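The authors sequenced (BGISEQ-500) 6 mRNA libraries of MDA-MB-231 cells, 3 after vehicle and 3 after 30 µM PDBAG1 for 24 h. They mapped clean reads with HISAT2 to GRCh38, and the submitters' processing notes also name HISAT2 2.0.4, Bowtie2 2.2.5 and RSEM 1.2.12. The methods and those notes name different patch releases of GRCh38. The methods describe FPKM, but the deposited tables hold TPM with 2 decimals. The step from reads to TPM is not stated. The annotation release is not given in the sources used here. TPM keeps no depth, so precision rests on 3 libraries per group.

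After a filter of 1 TPM or more in any 3 libraries, 12582 genes were compared on log2(TPM + 1) with limma 3.58.1 (R 4.3.3; lmFit, eBayes with trend), with Benjamini-Hochberg adjustment. On simulated data for this comparison (12582 genes), 87 of 100 genes changed by 0.58 on the log2 scale and 95 of 100 changed by 1 were recovered, with 8 unchanged genes called. No change as small as those of the members was simulated, so recovery at their size is unknown. Ratios of 2 genes were compared by an exact permutation test. The members, lists and ratios were chosen with earlier results of these data known, and motifs after their windows were read. The text names all members, up to 4 called genes per list with the largest changes, and enzymes listed as defining a step. That choice too was made with earlier results known. Genes named beyond that rule illustrate a list. Of the other folate enzymes, 3 genes are not reported here, and the counts of that list leave them out. Promoter windows are from RefSeq, gene positions from GENCODE v44.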

Additional observations from a re-analysis of the deposited data

How the results depend on the processing

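The number of genes called was 4736, and with a further limit of 1.5-fold it was 420. Of the members, 3 were called lower. That number was 5 after median-of-ratios scaling and 5 after quantile normalisation, where SHMT1 and SHMT2 joined PSAT1, MTHFD1 and MTHFD2. All genes called also rose under these scalings, to 5196 and 5146. With the 1.5-fold limit 0 members were called lower. The number of members called lower ranged from 2 to 3 with each library left out in turn. All genes called then ranged from 3520 to 4682. The number of members called higher was 0 in every setting. With the TPM filter applied to every library PHGDH was not tested, and the median of the serine synthesis genes was then -0.13 instead of -0.07. PHGDH changed sign under quantile normalisation (-0.002). The log2 difference of the SHMT2 to SHMT1 ratio lay between -0.029 and 0.0239 over the fits without 1 library, on both sides of 0. The other 5 ratios kept their direction under the alternatives run. Quantile normalisation and median-of-ratios scaling moved the median of all genes tested from 0.03 to -0.02 and -0.01.

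The replicate numbers of the labels were tried as a replicate block, which gave 3951 called genes and the same count of 3 members lower. Nothing in the labels or methods ties same-numbered libraries, and they did not deviate together (correlations of -0.21, 0.01 and -0.08), so the numbers were not taken as pairs. Because the values are TPM, no read-count model was run.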
